A study of Mus musculus with 6 samples.

Results

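Collagen genes were examined in RNA-seq of skin lesions of mice with psoriasis that were given regulatory T cells (Tregs). The 43 genes were all rows of the deposited table of 35434 genes whose symbol has the form of a collagen alpha chain (Col, a type number, the letter a and a chain number), with Col17a1 left out. By structure, 11 were fibrillar, 9 belonged to basement membranes and 23 were other collagens. One group had received Tregs treated with lenvatinib, an inhibitor of receptor tyrosine kinases (Lenv-Treg, 3 libraries), and the other had received control Tregs (Ctrl-Treg, 3 libraries). The labels give no strain, sex, age, time or way of inducing the disease, nor whether each library is a mouse of its own. The p-values therefore measure only how these libraries spread, which may be technical.

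Collagens are proteins whose alpha chains wind into a triple helix, and each chain has its own gene. Fibrillar collagens, chiefly types I and III in dermis, are made by fibroblasts, cut free of their end propeptides outside the cell and packed into the fibrils that give skin its tensile strength. Type IV collagen forms the sheet-like network of basement membranes under the epidermis and around vessels, nerves, muscle and fat cells. The remaining types coat fibrils, form beaded microfibrils or hexagonal nets, or span the cell membrane.

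Values are FPKM (fragments per kilobase of gene, scaled to the depth of the library), so levels of different genes can be compared per length. Depth, recovered from the steps of low values, was 38704536 to 40248462 assigned reads per library, so that a single read per kilobase stood for 0.0248 to 0.0258 FPKM. A difference is the Lenv-Treg mean minus the Ctrl-Treg mean of log2(FPKM + 1), a scale that understates how much low genes change. Genes with at least 0.5 FPKM in at least 3 libraries were tested with limma, and a gene was called at a Benjamini-Hochberg adjusted p under 0.05 over all 13945 tested genes. Of these genes 1532 were called higher and 4289 lower in Lenv-Treg, with a median difference of -0.17. After scaling by the median of ratios the counts were 2417 and 2417 (median 0.00), and after rescaling to TPM 947 and 7970 (median -0.44). The deposited FPKM summed to 543189 to 612665 in Lenv-Treg, against 458848 to 499306 in Ctrl-Treg, which TPM makes equal. A collagen difference is to be read against these medians.

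Most collagen transcripts tested were lower in Lenv-Treg skin. Of 30 tested members 20 fell and 1, Col13a1, rose, where 30.8% of all tested genes were called lower and 11.0% higher. After median-ratio scaling 17 fell, against 17.3% of all genes lower and 17.3% higher. After quantile normalization 17 fell, against 16.5% lower and 16.0% higher, and after rescaling to TPM 25 fell, against 57.2% lower and 6.79% higher. Col4a6, Col6a6, Col8a2, Col11a1 and Col27a1 passed the filter on low values through Ctrl-Treg alone and Col13a1 through Lenv-Treg alone, so these 6 could hardly have been tested without a difference, and of the other 24 tested members 15 fell and 0 rose. The members that fell had between 1.48% and 64.4% of their Ctrl-Treg mean. The summed FPKM of all 43 genes was 1689.6 ± 494 in Lenv-Treg and 4137 ± 562 in Ctrl-Treg (SD, n = 3 each), with 1288 to 2242 in the Lenv-Treg libraries and 3584 to 4707 in the Ctrl-Treg libraries. Of all assigned reads, collagen genes took 0.742% to 1.28% in the Lenv-Treg libraries, against 2.04% to 2.67% in the Ctrl-Treg libraries. The groups were fully apart, with Lenv-Treg below, for 22 of the 30 tested members, against 41.0% of all tested genes, and with Lenv-Treg above for 1, against 14.4% of all tested genes. In these bulk samples, fewer cells of a type and less RNA per cell cannot be told apart.

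The classes differed in how many members were called. All 8 tested fibrillar genes fell (median difference -1.23), as did 4 of 9 basement membrane genes (-0.65) and 8 of 13 other collagens (-0.77). These counts and medians include Col4a6, Col6a6, Col8a2, Col11a1, Col13a1 and Col27a1, which passed the filter through a single group. With no filter, 9 of 11 fibrillar, 3 of 9 basement membrane and 13 of 23 other collagens were called lower, against 16.0% of all genes. After median-ratio scaling the calls were 6, 3 and 8 and the medians -1.04, -0.55 and -0.70. After rescaling to TPM they were 8, 8 and 9 with medians -1.55, -1.03 and -1.25. On recovered reads, where low genes are not damped by the added 1 FPKM, the class medians were -1.74, -1.50 and -1.36, beside -0.21 for all tested genes. The order of the basement membrane and other classes thus depended on the scale, and the difference between classes was not tested.

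**Figure D1:**
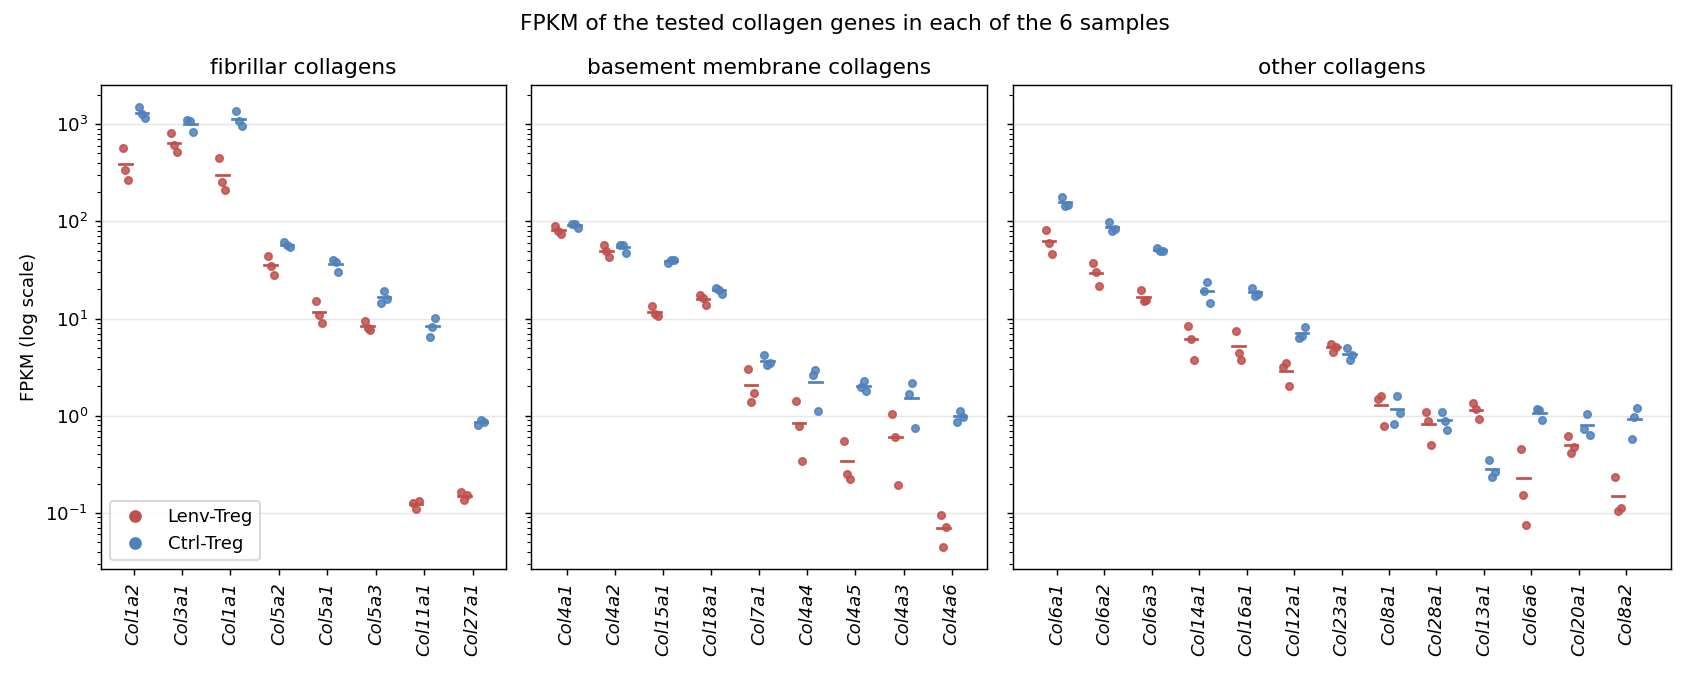
FPKM (log axis) of the 30 tested collagen genes, in panels for fibrillar, basement membrane and other collagens, each gene with its 3 Lenv-Treg libraries (red, left) and 3 Ctrl-Treg libraries (blue, right) and a bar at each mean. The fibrillar panel shows every gene with its groups apart, Col4a1 and Col4a2 overlap, and Col13a1 alone lies higher in Lenv-Treg with its groups apart.

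Among the fibrillar collagens, both type I chains fell far below Ctrl-Treg. Col1a1, which encodes the more numerous chain of the type I trimer, had 445, 253 and 212 FPKM in the Lenv-Treg libraries, against 1374, 1072 and 956 FPKM in the Ctrl-Treg libraries. Its mean was 26.8% of that in Ctrl-Treg (304 ± 124 FPKM in Lenv-Treg and 1134 ± 216 FPKM in Ctrl-Treg, difference -1.96, SE 0.29, adjusted p = 0.00184). Col1a2, the partner chain, had 563, 337 and 266 FPKM in Lenv-Treg, against 1505, 1282 and 1159 FPKM in Ctrl-Treg, 29.5% of the Ctrl-Treg mean (-1.82, SE 0.28, adjusted p = 0.00217). In both genes the highest Lenv-Treg library lay well below the lowest Ctrl-Treg library, and both calls held in all 17 alternative settings tried.

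Col3a1, which encodes the homotrimeric type III collagen that forms fibrils with type I, kept more of its Ctrl-Treg level. It had 812, 607 and 522 FPKM in Lenv-Treg, against 1097, 1090.4 and 826 FPKM in Ctrl-Treg, 64.4% of the Ctrl-Treg mean (-0.65, SE 0.22, adjusted p = 0.0465). Replicate 1 of Lenv-Treg came close to replicate 3 of Ctrl-Treg. The call ended without any 1 of 4 libraries (adjusted p = 0.141 and 0.149 without Lenv-Treg replicate 2 or 3, and 0.124 and 0.11 without Ctrl-Treg replicate 1 or 2), with no filter on low values (0.114), with median-ratio scaling (-0.43, adjusted p = 0.158) and with quantile-normalized values (-0.80, adjusted p = 0.0585).

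The type V genes encode minor chains that are built into type I fibrils and set their diameter. Col5a1 had 15.3, 10.8 and 8.95 FPKM in Lenv-Treg, against 40.0, 38.2 and 30.1 FPKM in Ctrl-Treg (-1.57, SE 0.19, adjusted p = 0.000847). Col5a2 had 44.3, 34.8 and 27.9 FPKM in Lenv-Treg, against 60.8, 56.5 and 54.7 FPKM in Ctrl-Treg (-0.69, SE 0.16, adjusted p = 0.0129), a call lost after median-ratio scaling (-0.48, adjusted p = 0.0518). Col5a3 had 9.33, 8.02 and 7.68 FPKM in Lenv-Treg, against 14.4, 19.3 and 15.8 FPKM in Ctrl-Treg (-0.90, SE 0.13, adjusted p = 0.00162). The groups were apart in all 3 genes, and Col5a2 kept 62.3% of its Ctrl-Treg mean while Col5a1 kept 32.3%.

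Col11a1 had the largest difference of all tested collagens. It encodes a type XI chain, best known for starting the fibrils of cartilage, and had 0.126, 0.11 and 0.134 FPKM in Lenv-Treg, against 6.46, 8.28 and 10.2 FPKM in Ctrl-Treg, 67.4-fold lower (-3.03, SE 0.15, adjusted p = 2.91e-05). This rested on 120 reads in Lenv-Treg and 7951 reads in Ctrl-Treg over the 3 libraries of each. Col27a1, a fibrillar gene of cartilage at low level here, fell to 0.151 ± 0.0137 FPKM in Lenv-Treg, against 0.852 ± 0.0575 FPKM in Ctrl-Treg (SD, n = 3 each, -0.69, adjusted p = 0.000603).

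The promoter windows of 3 fibrillar genes are shown because the genes fell to such different degrees. They are RefSeq windows on build GRCm38.p6, from 250 bases before to 50 bases after an annotated start, on the gene's own strand, with matches to the CCAAT box, to the GC box GGGCGG and to the TATA box TATAAA, searched on both strands, in capitals.
Col1a2 (chr6:4505368-4505667, plus strand): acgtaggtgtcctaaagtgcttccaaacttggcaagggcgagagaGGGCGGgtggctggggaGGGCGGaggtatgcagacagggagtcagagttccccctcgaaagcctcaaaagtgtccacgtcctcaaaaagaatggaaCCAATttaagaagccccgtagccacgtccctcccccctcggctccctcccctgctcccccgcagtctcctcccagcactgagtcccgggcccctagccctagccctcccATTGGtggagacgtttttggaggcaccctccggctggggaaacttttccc
Col3a1 (chr1:45311288-45311587, plus strand): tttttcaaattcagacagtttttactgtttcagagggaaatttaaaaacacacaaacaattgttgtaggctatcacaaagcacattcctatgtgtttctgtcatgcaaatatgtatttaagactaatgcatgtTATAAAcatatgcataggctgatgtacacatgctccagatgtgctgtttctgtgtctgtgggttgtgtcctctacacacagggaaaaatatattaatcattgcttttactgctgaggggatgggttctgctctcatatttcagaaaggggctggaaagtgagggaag
Col11a1 (chr3:114030290-114030589, plus strand): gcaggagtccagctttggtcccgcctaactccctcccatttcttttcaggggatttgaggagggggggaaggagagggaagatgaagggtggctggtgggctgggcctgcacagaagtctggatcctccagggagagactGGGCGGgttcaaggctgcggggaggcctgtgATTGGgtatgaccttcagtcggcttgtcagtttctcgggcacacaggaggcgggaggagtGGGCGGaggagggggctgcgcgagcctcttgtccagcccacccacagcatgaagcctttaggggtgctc
Counting the first transcribed base as 1, the Col1a2 window held CCAAT at -109 and, on the opposite strand, at 1, with GGGCGG at -205 and -188. The Col11a1 window held CCAAT on the opposite strand at -79 and GGGCGG at -110 and -19. The Col3a1 window held neither and had TATAAA at -117. Its G and C content was 37.7%, against 61.0% for Col1a2, 62.3% for Col11a1 and a median of 52.7% over all 32851 windows in the table. Of the 43 members 34 had a window. These genes had 37 windows. The CCAAT letters were in 12 windows (32.4%) and in 37.4% of all windows, with 6 of the 16 genes called lower and 6 of the 18 others holding a match. The GGGCGG letters were in 23 windows (62.2%) and in 35.7% of all windows, with 12 of 16 and 10 of 18 genes. The TATAAA letters were in 4 windows (10.8%) and in 13.6% of all windows, with 1 of 16 and 3 of 18 genes. None of the matches in the 3 windows printed here overlap each other, while GGGCGG matches overlapped in the windows of Col6a2 and Col8a2. These matches are descriptions of the letters only.

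The make-up of the collagen messages differed between the groups. Type I chains made up 40.1% ± 4.24 of the summed collagen FPKM in Lenv-Treg and 59.1% ± 2.02 in Ctrl-Treg (SD, n = 3 each), while Col3a1 made up 38.7% ± 2.22 in Lenv-Treg and 24.3% ± 1.9 in Ctrl-Treg. Col3a1 exceeded Col1a1 in every Lenv-Treg library, with ratios of 1.82, 2.39 and 2.46, against 0.799, 1.02 and 0.864 in the Ctrl-Treg libraries (log2 difference 1.31, two-sided exact permutation p = 0.1, 0.143 adjusted over 10 such ratios). Basement membrane collagens made up 9.86% ± 1.51 in Lenv-Treg and 5.22% ± 0.457 in Ctrl-Treg, and the other collagens 7.91% ± 0.422 in Lenv-Treg and 8.48% ± 0.666 in Ctrl-Treg. These shares must sum to 100%, so a higher share does not say that its genes rose.

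**Figure D2:**
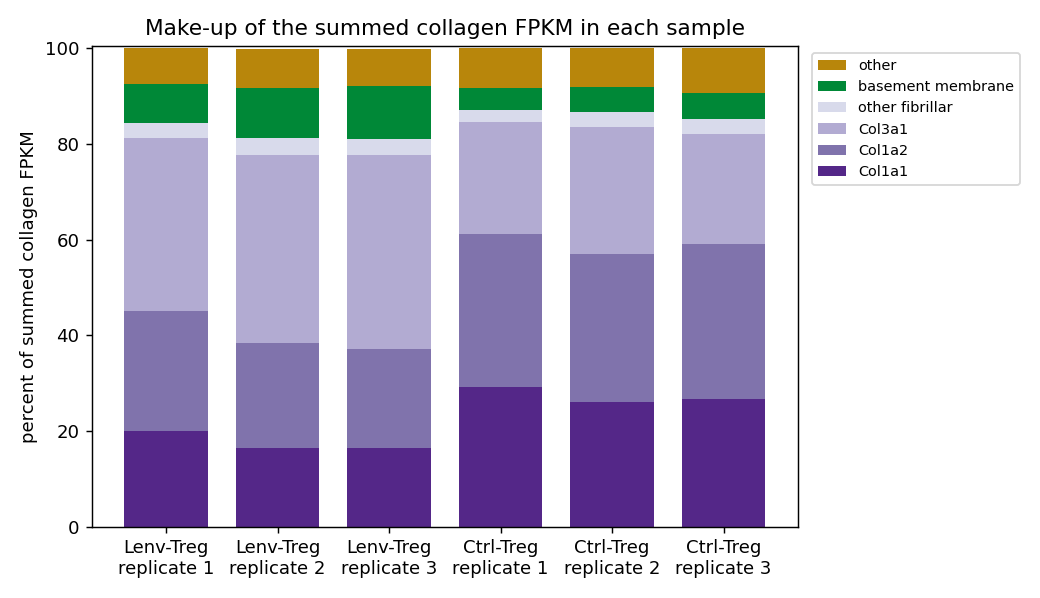
Share of the summed collagen FPKM (percent) held by Col1a1, Col1a2, Col3a1, the other fibrillar genes, basement membrane genes and other collagens in each of the 3 Lenv-Treg (left) and 3 Ctrl-Treg (right) libraries. Col3a1 held 36.2% to 40.5% in Lenv-Treg, against 23.1% to 26.5% in Ctrl-Treg.

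Basement membrane collagens split between chains. Col4a1 and Col4a2 encode the chains of the type IV trimer found in nearly all basement membranes, and neither was called. Col4a1 had 89.2, 79.3 and 73.5 FPKM in Lenv-Treg, against 94.1, 95 and 85.6 FPKM in Ctrl-Treg (-0.18, 95% interval -0.44 to 0.07, adjusted p = 0.214). Col4a2 had 57.0, 49.0 and 42.5 FPKM in Lenv-Treg, against 57.5, 56.6 and 47.6 FPKM in Ctrl-Treg (-0.13, 95% interval -0.44 to 0.19, adjusted p = 0.48). The groups overlapped in both genes. After rescaling to TPM, where the median of all genes was -0.44, Col4a1 was called lower (-0.47, adjusted p = 0.0207) and Col4a2 was not (-0.41, adjusted p = 0.0673), and after median-ratio scaling both differences were above 0 without a call (0.03 and 0.08). The ratio of Col4a1 to Col1a1 was 0.2, 0.313 and 0.347 in Lenv-Treg, against 0.0685, 0.0886 and 0.0895 in Ctrl-Treg, fully apart (exact permutation test, two-sided p = 0.1, the smallest that 3 against 3 allows).

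Col4a1 and Col4a2 lie head to head and are transcribed away from each other. Their RefSeq promoter windows (GRCm38.p6, 250 bases before to 50 after the start, each on its own strand) overlap by 78 bases, at chr8:11312777-11312854, and are shown because these 2 genes kept close levels. The shared bases are in capitals and run in opposite directions.
Col4a1 (chr8:11312777-11313076, minus strand): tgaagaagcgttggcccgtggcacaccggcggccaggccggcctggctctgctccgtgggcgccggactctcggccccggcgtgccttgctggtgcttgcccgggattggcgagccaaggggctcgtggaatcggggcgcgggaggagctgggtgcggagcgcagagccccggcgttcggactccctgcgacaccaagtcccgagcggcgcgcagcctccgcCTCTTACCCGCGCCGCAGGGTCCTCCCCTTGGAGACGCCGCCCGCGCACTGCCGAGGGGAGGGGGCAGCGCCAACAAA
Col4a2 (chr8:11312555-11312854, plus strand): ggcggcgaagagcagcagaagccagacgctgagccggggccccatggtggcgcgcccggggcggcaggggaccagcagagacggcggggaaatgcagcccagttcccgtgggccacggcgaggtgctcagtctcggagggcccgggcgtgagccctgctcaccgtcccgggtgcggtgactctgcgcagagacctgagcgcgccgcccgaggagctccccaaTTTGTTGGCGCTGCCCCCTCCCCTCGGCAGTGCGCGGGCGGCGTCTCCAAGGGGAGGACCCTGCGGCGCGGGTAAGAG
The windows had a G and C content of 74.0% and 73.7%. The ratio of Col4a1 to Col4a2 was 1.56, 1.62 and 1.73 in Lenv-Treg, against 1.64, 1.68 and 1.8 in Ctrl-Treg, with overlapping groups (exact permutation p = 0.4).

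The other type IV chains were less abundant, and those of the alpha 5 and alpha 6 trimer, which occurs in the basement membranes of skin and smooth muscle, fell. Col4a5 had 0.55, 0.254 and 0.224 FPKM in Lenv-Treg, against 1.97, 2.26 and 1.81 FPKM in Ctrl-Treg (-1.17, SE 0.12, adjusted p = 0.00039). Col4a6 fell to 0.0704 ± 0.026 FPKM in Lenv-Treg, against 0.988 ± 0.13 FPKM in Ctrl-Treg (-0.89, SE 0.09, adjusted p = 0.000308), from 57 reads in Lenv-Treg and 789 reads in Ctrl-Treg. The means were 5.88-fold lower for Col4a5 and 14-fold lower for Col4a6. Col4a3 and Col4a4, known from the kidney glomerulus, were not called. Col4a4 had 1.41, 0.791 and 0.345 FPKM in Lenv-Treg, against 2.6, 2.95 and 1.13 FPKM in Ctrl-Treg (-0.80, adjusted p = 0.0549), with replicate 3 the lowest library of each group and Ctrl-Treg replicate 3 below Lenv-Treg replicate 1. Without Ctrl-Treg replicate 3 it was called (-1.07, adjusted p = 0.0141), as it was without Lenv-Treg replicate 1 (-1.01, adjusted p = 0.0346). Col4a3 was 0.609 ± 0.419 FPKM in Lenv-Treg and 1.54 ± 0.727 FPKM in Ctrl-Treg (-0.65, 95% interval -1.26 to -0.04, adjusted p = 0.0828), and it was called without Ctrl-Treg replicate 3 (-0.89, adjusted p = 0.0223). Both genes were also called after rescaling to TPM (adjusted p = 0.0392 for Col4a3 and 0.0257 for Col4a4), and Col4a4 with sample weights (0.0326) and by voom on recovered reads (0.0499). In limma with the replicate number as a block both were called too (adjusted p = 0.0166 for Col4a3 and 0.00902 for Col4a4). The labels do not say that same-numbered libraries pair.

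Of the collagens that tie basement membrane to the tissue around it, type XV fell. Col15a1, a multiplexin that bridges fibrils next to basement membranes, had 13.6, 11.1 and 10.6 FPKM in Lenv-Treg, against 37.6, 39.7 and 39.9 FPKM in Ctrl-Treg (-1.66, SE 0.11, adjusted p = 7.83e-05). Col18a1, the other multiplexin, whose end fragment is endostatin, had 17.5, 16.2 and 13.9 FPKM in Lenv-Treg, against 20.8, 19.7 and 17.8 FPKM in Ctrl-Treg (-0.28, 95% interval -0.54 to -0.02, adjusted p = 0.079). Its groups were narrowly apart without a call. It was called lower after rescaling to TPM (-0.57, adjusted p = 0.0133). In limma with the replicate number as a block, a pairing that the labels do not give, it was also called lower (adjusted p = 0.0397). Col7a1 encodes the anchoring fibrils that hold epidermis to dermis. It had 3.04, 1.4 and 1.7 FPKM in Lenv-Treg, against 4.21, 3.35 and 3.48 FPKM in Ctrl-Treg (-0.65, SE 0.19, adjusted p = 0.0314). That call ended without any 1 of 5 libraries, all but Lenv-Treg replicate 1 (adjusted p = 0.0534 to 0.0994), with no filter (0.0867), after median-ratio scaling (0.0829) and after quantile normalization (0.145).

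**Figure D3:**
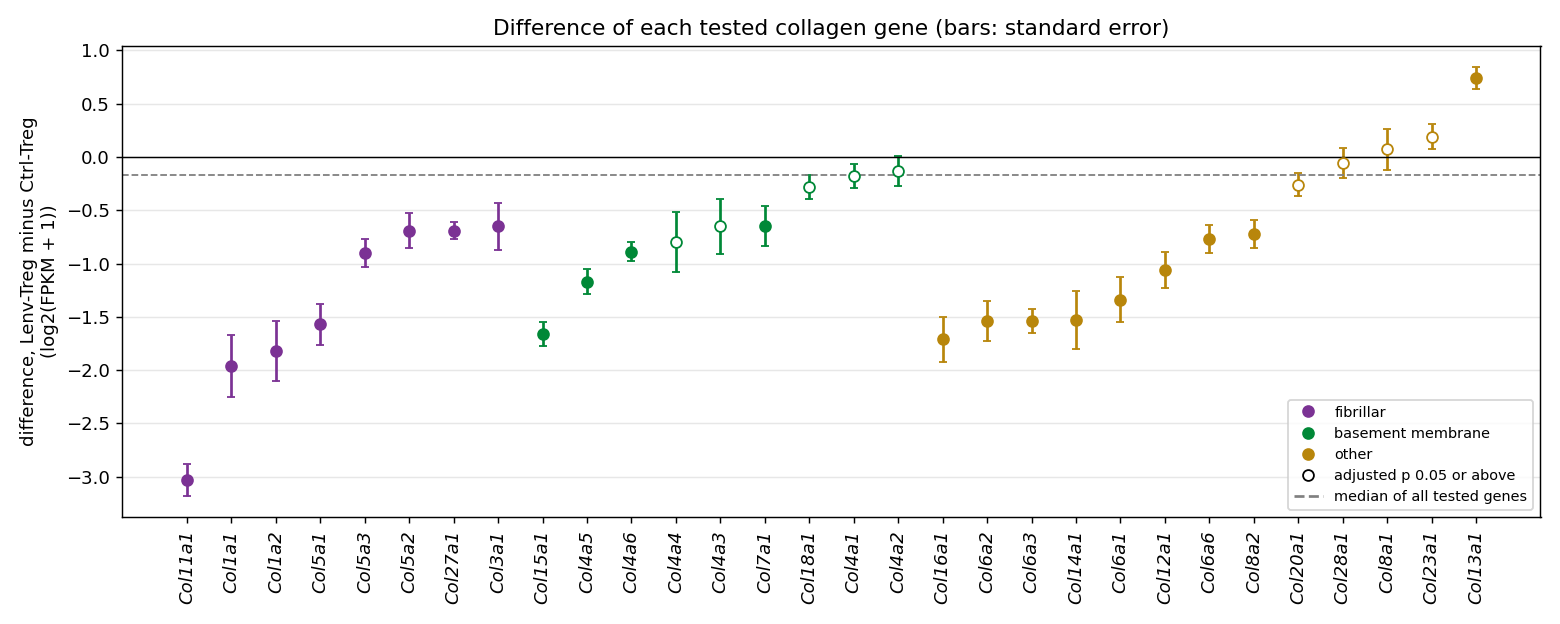
Difference of each tested collagen gene, Lenv-Treg minus Ctrl-Treg in units of log2(FPKM + 1), with its standard error, coloured by class and filled where the adjusted p was under 0.05. The dashed line is the median of all tested genes at -0.17, and Col4a1 (-0.18), Col4a2 (-0.13) and Col28a1 (-0.06) lie next to it.

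Type VI collagen forms beaded microfibrils around cells, and its 3 main chains fell together. Col6a1 had 81.2, 59.9 and 46.1 FPKM in Lenv-Treg, against 179, 143 and 148 FPKM in Ctrl-Treg (-1.34, SE 0.21, adjusted p = 0.00211). Col6a2 had 37.4, 30.1 and 21.7 FPKM in Lenv-Treg, against 97.5, 79.5 and 83.1 FPKM in Ctrl-Treg (-1.54, SE 0.19, adjusted p = 0.000893). Col6a3 had 19.6, 15.3 and 15.6 FPKM in Lenv-Treg, against 52.6, 49.1 and 49.7 FPKM in Ctrl-Treg (-1.54, SE 0.11, adjusted p = 0.000117). The chains kept between 33.3% and 39.9% of their Ctrl-Treg means, and no library of one group reached the other. Col6a6, which encodes a chain that resembles alpha 3, had 0.452, 0.153 and 0.0743 FPKM in Lenv-Treg, against 1.18, 1.15 and 0.903 FPKM in Ctrl-Treg (-0.77, adjusted p = 0.00331). Its ratio of means was 0.21, and 0.105 when Lenv-Treg replicate 1 was left out.

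The FACIT collagens, which lie on the surface of fibrils and have interrupted triple helices, fell in 3 of 4 tested members. Col12a1, found in dense and tension-bearing tissue, had 3.16, 3.48 and 2.02 FPKM in Lenv-Treg, against 6.27, 6.68 and 8.12 FPKM in Ctrl-Treg (-1.06, SE 0.17, adjusted p = 0.00247). Col14a1, a regulator of fibril growth, had 8.47, 6.17 and 3.71 FPKM in Lenv-Treg, against 19.3, 23.6 and 14.5 FPKM in Ctrl-Treg (-1.53, SE 0.27, adjusted p = 0.00382). Col16a1 had 7.41, 4.39 and 3.74 FPKM in Lenv-Treg, against 20.8, 17 and 18 FPKM in Ctrl-Treg (-1.71, SE 0.21, adjusted p = 0.000822). These 3 kept 41.2%, 32% and 27.8% of their Ctrl-Treg means. Col20a1 was 0.503 ± 0.106 FPKM in Lenv-Treg and 0.8 ± 0.216 FPKM in Ctrl-Treg, with the groups apart but no call (-0.26, 95% interval -0.52 to 0.01, adjusted p = 0.106). It was called lower in TPM (adjusted p = 0.0319) and with sample weights (0.0486).

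Of the network-forming and membrane-spanning collagens tested, 1 fell, 1 rose and 2 were not called. Col8a2, a chain of the hexagonal type VIII network, fell to 0.151 ± 0.0725 FPKM in Lenv-Treg, against 0.916 ± 0.314 FPKM in Ctrl-Treg (-0.72, adjusted p = 0.00472), a call lost after quantile normalization (-0.43, adjusted p = 0.0523). Its partner Col8a1 had 1.48, 1.59 and 0.776 FPKM in Lenv-Treg, against 0.822, 1.61 and 1.06 FPKM in Ctrl-Treg (0.07, 95% interval -0.36 to 0.51, adjusted p = 0.77). Col13a1, a transmembrane collagen of cell-matrix contacts, was the sole member that rose. It had 1.36, 1.18 and 0.917 FPKM in Lenv-Treg, against 0.347, 0.234 and 0.261 FPKM in Ctrl-Treg, 4.11-fold higher (0.74, SE 0.10, adjusted p = 0.00137), from 890 reads in Lenv-Treg and 214 reads in Ctrl-Treg. Col23a1, also transmembrane, had 5.53, 4.57 and 5.04 FPKM in Lenv-Treg, against 4.98, 3.71 and 4.2 FPKM in Ctrl-Treg (0.19, 95% interval -0.08 to 0.47, adjusted p = 0.223). It was called higher after median-ratio scaling (0.37, adjusted p = 0.0495) and quantile normalization (0.42, adjusted p = 0.0336), and its difference was -0.05 after rescaling to TPM. Col28a1, found around peripheral nerves, had 1.09, 0.884 and 0.503 FPKM in Lenv-Treg, against 1.08, 0.891 and 0.719 FPKM in Ctrl-Treg (-0.06, 95% interval -0.39 to 0.27, adjusted p = 0.741).

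The remaining 13 members, 3 fibrillar and 10 other, did not reach the filter. They had 0 to 240 reads over the Lenv-Treg libraries and 1 to 251 over the Ctrl-Treg libraries. The groups were apart for 8 of them, all lower in Lenv-Treg (exact permutation p = 0.1 for each, the smallest possible), and overlapped for the other 5 (Col6a4, Col6a5, Col10a1, Col11a2 and Col22a1). Among all tested genes 41.0% were apart with Lenv-Treg below, and the share among genes under the filter was not computed. Types II and IX, collagens of cartilage, are among the 8. Col2a1, the main chain of cartilage fibrils, had 0 reads in Lenv-Treg and 38 reads in Ctrl-Treg, at least 12.9-fold lower, with the floor set at 3 reads over the group. Col9a1, Col9a2 and Col9a3, whose chains sit on those fibrils, had 2, 4 and 17 reads in Lenv-Treg, against 16, 32 and 138 reads in Ctrl-Treg. Col24a1, a further fibrillar gene, had 19 reads in Lenv-Treg and 168 reads in Ctrl-Treg. In Lenv-Treg, Col26a1 had 15 reads, Col25a1 8 reads and Col19a1 19 reads, against 90, 36 and 37 reads in Ctrl-Treg. Of the 15 Col26a1 reads 11 were in Lenv-Treg replicate 1, and the ratio of means was 0.165 with that library and 0.0663 without it. For Col25a1 the ratio was 0.218, and 0.123 without Lenv-Treg replicate 2. In limma with no filter, in which 16.0% of genes were called lower, 7 of the 13 were called lower, all of these 8 but Col19a1. Col10a1, a marker of maturing cartilage, had 1 read in each group.

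Ratios of collagen chains were compared in 10 pairs by an exact permutation test. The pairs were chains that assemble or lie together, except Col4a1/Col1a1, which sets a basement membrane chain against a fibrillar chain. No p can be below 0.1 in this test, and none was below 0.143 after adjustment over the pairs. The groups were apart in 7 pairs. Among single tested genes 41.0% were apart with Lenv-Treg below and 14.4% with Lenv-Treg above. The share among ratios of other genes was not computed. Col1a1/Col1a2 differed little, at 0.791, 0.752 and 0.798 in Lenv-Treg, against 0.913, 0.837 and 0.825 in Ctrl-Treg. Col5a1/Col5a2 was 0.345, 0.31 and 0.321 in Lenv-Treg, against 0.658, 0.676 and 0.55 in Ctrl-Treg, a log2 difference of -0.95. Col6a1/Col6a2 was 2.17, 1.99 and 2.13 in Lenv-Treg, against 1.84, 1.79 and 1.78 in Ctrl-Treg, a small shift. Col8a1/Col8a2 was 6.33, 15.1 and 6.89 in Lenv-Treg, against 1.41, 1.68 and 0.877 in Ctrl-Treg, a log2 difference of 2.77. It rested on 81 Col8a2 reads in Lenv-Treg and was 0.80 with 1 FPKM added to each chain. Col4a5/Col4a6 was 5.72, 5.76 and 3.15 in Lenv-Treg, against 2.26, 2.00 and 1.88 in Ctrl-Treg, on few reads of Col4a6, and its log2 difference of 1.20 was -0.28 with 1 FPKM added. The ratios of Col6a3/Col6a1 and Col4a3/Col4a4 overlapped between groups (exact p = 0.3 and 0.9).

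**Figure D4:**
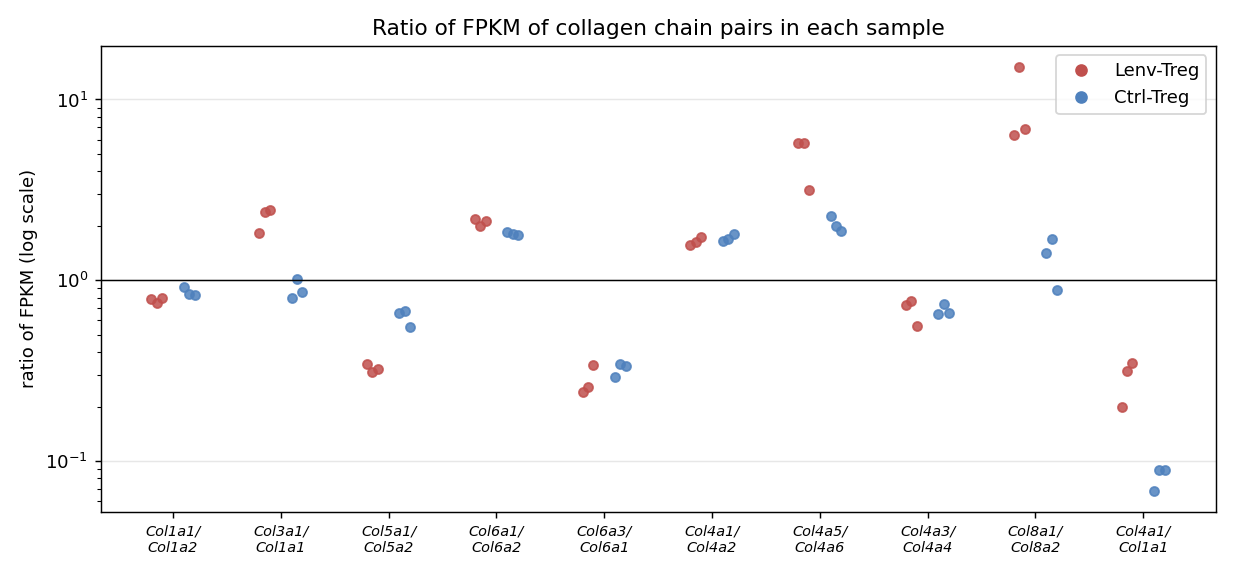
Ratio of FPKM (log axis) of 10 chain pairs in each library, Lenv-Treg in red on the left and Ctrl-Treg in blue on the right of each pair. Col3a1/Col1a1, Col8a1/Col8a2 and Col4a1/Col1a1 lie higher in every Lenv-Treg library, Col5a1/Col5a2 lies lower, and Col4a1/Col4a2 overlaps.

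Within the Lenv-Treg group one library held more collagen than the others. Replicate 1 had the highest value of its group for 27 of the 30 tested members, where it was the highest for 43.3% of all tested genes. In Ctrl-Treg, replicate 1 was the highest for 16 of 30, against 29% of all tested genes. Without Lenv-Treg replicate 1 the ratio of means for Col1a1 was 0.205, against 0.268 with it, and 21 members were called lower.

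Of 30 tested genes on a list of collagen maturation (34 listed), 14 fell and 4 rose, with a median of -0.29, where 30.8% of all tested genes fell and 11.0% rose. After median-ratio scaling 12 fell and 4 rose (median -0.09), and after rescaling to TPM 19 fell and 1 rose (median -0.58). Serpinh1, the chaperone of procollagen in the endoplasmic reticulum, had 71.5, 97.1 and 90.2 FPKM in Lenv-Treg, against 209, 214 and 233 FPKM in Ctrl-Treg (-1.34, SE 0.14, adjusted p = 0.000399). Sparc, a collagen-binding matrix protein, had 682, 567 and 568 FPKM in Lenv-Treg, against 1657, 1582 and 1595 FPKM in Ctrl-Treg (-1.42, SE 0.16, adjusted p = 0.000559). Fkbp14, a prolyl isomerase (-0.98), and Adamts14, a procollagen N-propeptidase (-1.05), fell too, as did the propeptidase enhancer Pcolce (-1.05). P4hb, the shared subunit of prolyl hydroxylase that also folds other proteins, rose (0.68, adjusted p = 0.00639), and so did the cross-linking enzyme Lox (0.86, adjusted p = 0.0109). Of its relatives Loxl2 (-0.84, adjusted p = 0.00263) and Loxl4 (-0.96, adjusted p = 0.00286) fell, and Loxl1 (0.41) and Loxl3 (0.36) were not called. Ppib, a prolyl isomerase, was 348 ± 43.5 FPKM in Lenv-Treg and 313 ± 37.5 FPKM in Ctrl-Treg without a call (0.15, adjusted p = 0.443).

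Of 16 tested genes of collagen breakdown, 8 rose and 3 fell (median 0.30), beside the same 11.0% and 30.8% of all tested genes. After median-ratio scaling 8 rose and 1 fell (median 0.49), and after rescaling to TPM 8 rose and 5 fell (median 0.03). Mmp8, the collagenase of neutrophils and also on the neutrophil marker list, rose to 13.3 ± 3.42 FPKM in Lenv-Treg, against 0.264 ± 0.192 FPKM in Ctrl-Treg (3.48, SE 0.20, adjusted p = 4.13e-05). It passed the filter through Lenv-Treg alone, as did the neutrophil markers Ly6g and Ngp. Mmp3, a stromelysin, rose by 2.24 on the log2(FPKM + 1) scale, and Mrc1, a receptor that takes up collagen fragments and is also on the macrophage list, by 1.31. Cathepsin genes Ctsb (0.65) and Ctsl (0.86) rose, while Ctsk, the cathepsin of osteoclasts that cuts triple helices, did not pass (-0.20, adjusted p = 0.515). The inhibitor Timp2 did not pass either (-0.52, adjusted p = 0.066). Among the other inhibitors, Timp1 rose to 70.6 ± 31.7 FPKM in Lenv-Treg, against 13.3 ± 4.4 FPKM in Ctrl-Treg (2.25, adjusted p = 0.00388), and Timp3 fell (-1.52). Fap (-0.47), a fibroblast protease, and Mrc2 (-0.39), a collagen uptake receptor, also fell. The summed neutrophil markers were 38088 to 53786 FPKM in Lenv-Treg and 52.4 to 192 FPKM in Ctrl-Treg, with 8 of 9 tested genes higher. S100a8 and S100a9 made up nearly all of the Lenv-Treg sum (means of 21891 and 24392 FPKM). Ly6g and Ngp had means of 4.22 and 5.09 FPKM there, and Camp was not called (adjusted p = 0.181). The macrophage markers summed to 1951 to 2083 FPKM in Lenv-Treg and 1413 to 1879 FPKM in Ctrl-Treg, with 3 of 10 higher and 1 lower. The part of neutrophils and macrophages in the breakdown genes was not tested.

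Partners of collagen in the matrix were mixed. Of 9 tested fibril partners 4 fell and 0 rose (median -0.40), with 3 lower after median-ratio scaling and 7 in TPM, where 30.8%, 17.3% and 57.2% of all tested genes were lower under the same scalings. Dcn and Lum, small proteoglycans that bind fibrils, were not called, Dcn at 1281, 1455 and 1084 FPKM in Lenv-Treg, against 1251, 1016 and 1079 FPKM in Ctrl-Treg (0.19, 95% interval -0.25 to 0.62, adjusted p = 0.449). Lum was 282 ± 4.13 FPKM in Lenv-Treg and 319 ± 46.8 FPKM in Ctrl-Treg (-0.17, 95% interval -0.50 to 0.17, adjusted p = 0.376). Postn, the gene of periostin (-1.31), Fmod, a fibril-binding proteoglycan (-1.20), Dpt, the gene of dermatopontin (-0.93), and Fn1, the gene of fibronectin (-0.72), fell. Of 11 basement membrane partners 8 fell and 0 rose, with a median of -0.73. Among them were the proteoglycan gene Agrn (-1.05), the laminin genes Lama5 (-1.01), Lamb1 (-0.73) and Lamb2 (-0.70), and Nid1 (-0.76), whose product links laminin to type IV collagen. Lamc1 did not pass (-0.47, adjusted p = 0.13). Of 6 tested collagen receptor genes 2 fell, a share near the 30.8% of all tested genes. These were the discoidin receptors Ddr1 (-0.43) and Ddr2 (-0.70), with both calls lost after median-ratio scaling. The integrin subunit gene Itgb1 was 93.9 ± 8.1 FPKM in Lenv-Treg and 94.8 ± 8.44 FPKM in Ctrl-Treg (-0.01, 95% interval -0.28 to 0.26, adjusted p = 0.936). The alpha subunit genes Itga1 (-0.18), Itga2 (-0.07) and Itga11 (-0.25) were not called.

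**Figure D5:**
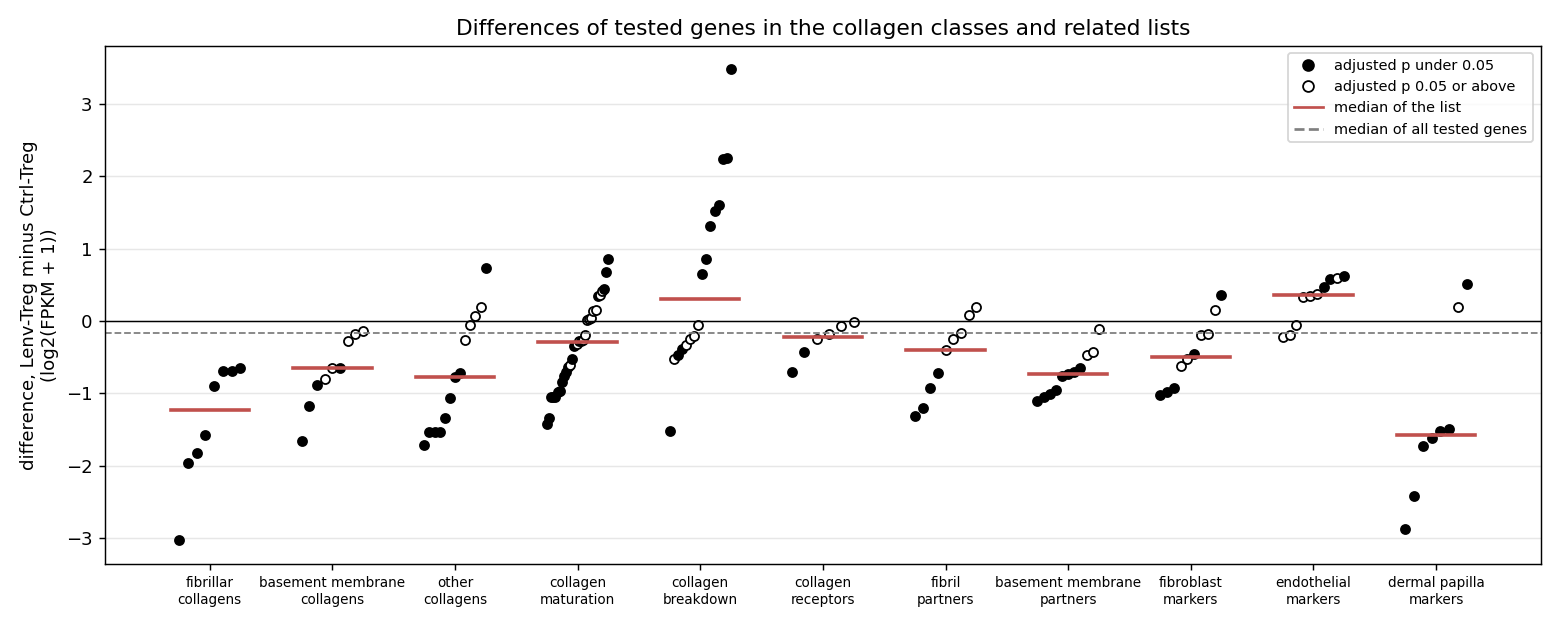
Difference of every tested gene, Lenv-Treg minus Ctrl-Treg in units of log2(FPKM + 1), in the 3 collagen classes and 8 related lists, filled where the adjusted p was under 0.05, with the median of each list in red. The medians run from -1.57 for dermal papilla markers and -1.23 for fibrillar collagens to 0.36 for endothelial markers, beside -0.17 for all tested genes (dashed).

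Markers of the cells that make collagen, and of others in skin, were read beside these values. The counts of each list stand beside 30.8% of all tested genes lower and 11.0% higher, and those of fibroblast, pericyte and smooth muscle markers lie near these shares. In TPM, Pdgfrb and the dermal papilla gene called higher, Prdm1, lost their calls, and basal keratinocyte markers were 3 higher and 2 lower. After median-ratio scaling 6 macrophage markers were higher and 0 lower. Of 10 fibroblast markers 4 fell (Mfap5, Twist2, Prrx1 and Cd34) and 1 rose (Pdgfrb), with a summed level of 229 to 313 FPKM in Lenv-Treg and 359 to 456 FPKM in Ctrl-Treg. The sum was 65.9% of the Ctrl-Treg mean and weighted to Cd34 and Pi16 (129 and 121 FPKM in Ctrl-Treg). Single markers ran from 48.8% (Twist2) to 129.7% (Pdgfrb), and summed fibrillar collagens stood at 39%. Pdgfra, a defining fibroblast gene, was 19.8 ± 5.78 FPKM in Lenv-Treg and 17.5 ± 2.47 FPKM in Ctrl-Treg (adjusted p = 0.579). Endothelial markers summed to 182 to 221 FPKM in Lenv-Treg and 111 to 169 FPKM in Ctrl-Treg, with 3 of 10 higher and 0 lower, and with 0 higher in TPM. Pericyte and smooth muscle markers fell in 4 of 10, with sums of 373 to 466 FPKM in Lenv-Treg and 428 to 734 FPKM in Ctrl-Treg. Those that fell were the smooth muscle genes Acta2, Myh11, Tagln and Cnn1, while Rgs5, Kcnj8, Abcc9, Notch3 and Mcam were not called. Des, also not called, weighed most in the sums (252 ± 23.9 FPKM in Lenv-Treg and 275 ± 127 FPKM in Ctrl-Treg). Schwann cell markers fell in 8 of 10, with sums of 114 to 121 FPKM in Lenv-Treg and 148 to 196 FPKM in Ctrl-Treg. Pmp22 weighed most in these sums (75.2 ± 2.74 FPKM in Lenv-Treg and 97.6 ± 9.81 FPKM in Ctrl-Treg). Adipocyte markers fell in 5 of 8, with 1 higher, and summed to 1651 to 2375 FPKM in Lenv-Treg and 2399 to 3376 FPKM in Ctrl-Treg. Basal keratinocyte markers rose in 4 of 6 and fell in 1, with sums of 6087 to 6214 FPKM in Lenv-Treg and 1753 to 2126 FPKM in Ctrl-Treg. Krt14 (4428 FPKM in Lenv-Treg and 769 FPKM in Ctrl-Treg) and Krt5 (1629 FPKM in Lenv-Treg and 865 FPKM in Ctrl-Treg) weighed most. Of 10 skeletal muscle markers 0 were called in limma (1 with an unadjusted p under 0.05, 0 called by voom on recovered reads, 4 lower in TPM), and their sums were 2959 to 4247 FPKM in Lenv-Treg and 3314 to 10736 FPKM in Ctrl-Treg.

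Hair follicle markers fell in 11 of 12 (6.57 to 22.8 FPKM in Lenv-Treg and 1334 to 2922 FPKM in Ctrl-Treg), and dermal papilla and sheath markers in 6 of 8 tested, with 1 higher (42.4 to 46.3 FPKM in Lenv-Treg and 75.9 to 100 FPKM in Ctrl-Treg). The hair follicle genes Krt85, Lef1, Hoxc13, Padi3 and Shh passed the filter through Ctrl-Treg alone, as did Corin, Hhip and Notum of dermal papilla. So did Ncam1 of Schwann cells and Plod2 of collagen maturation, and such genes could hardly have been tested without a difference. Of 8 chondrocyte markers 2 were tested, Acan and Cnmd, which also passed through Ctrl-Treg alone, and both fell. The chondrocyte markers summed to 0.0903 to 0.323 FPKM in Lenv-Treg and 2.94 to 4.08 FPKM in Ctrl-Treg. Among the untested cartilage genes, Matn1, Matn3 and Snorc were at 0 in every Ctrl-Treg library and Ucma was at 0 in all 6. Hapln1 had 0.0146, 0 and 0.0245 FPKM in Lenv-Treg, against 0.0337, 0.0594 and 0.0501 FPKM in Ctrl-Treg, with the groups apart. Chad overlapped between the groups. Osteoblast markers summed to 1.71 to 3.61 FPKM in Lenv-Treg and 4.23 to 4.63 FPKM in Ctrl-Treg. Of 8 listed osteoblast markers 2 were tested, Sp7 and Alpl. Sp7 was called lower but also passed the filter through Ctrl-Treg alone, so its call carries the same limit. Alpl, which weighed most in the sums, overlapped between the groups and was not called (-0.29, adjusted p = 0.272). The part of these cell types in the collagen differences was not tested.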

How the data were processed

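The submitters deposited 1 table of FPKM values for 35434 genes in 6 libraries, made from total RNA with a VAHTS Universal V10 kit per the labels' protocols. Per the submitters' processing notes the genome build was GRCm39. Not given in the sources used here were the aligner, the counter and the annotation. Groups came from the treatment labels, and every column matched a sample title (0 other sample columns). The middle number of each sample title was taken as the replicate number. The FPKM as deposited by the authors were used without rescaling. Whole reads were recovered from the steps of low values (tolerance 0.005 reads plus 1.5e-07 per read), in all 6 libraries for all 13945 tested genes. Gene lengths came from a GENCODE annotation, which the submitters did not name. Of 3589 low genes with such a length, 234 agreed on the most common depth and fixed it.

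Genes with FPKM of at least 0.5 in at least 3 libraries were tested with limma 3.58.1 in R 4.3.3 (log2(FPKM + 1), mean-variance trend, no covariates, two-sided, Benjamini-Hochberg over all tested genes, threshold 0.05), checked on simulated reads. Intervals cover 95%. Chain ratios and single low genes were tested by exact permutation. Read counts and the floor of 3 reads cover counting error only. The members, classes, lists and alternatives were chosen with earlier results of these data known. Named were, by mean FPKM, the top 6 fibrillar, 6 basement membrane and 10 other members, members called with a difference of at least 1, and all other called members. Of each related list, genes with the highest mean or smallest p were named. Pcolce, Lox, its relatives, Ctsl, Fap, Mrc2, Timp1, Timp3, the cell type markers and members outside these rules were named after their values were seen. Overlapping genes and strand could not be resolved in a table of FPKM. Promoter windows are RefSeq's on GRCm38.p6, another build than that of the table.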

Additional observations from a re-analysis of the deposited data

How the results depend on the processing

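Of the 20 members called lower, 16 kept the call in every alternative that tested them (at most 17): pseudocounts of 0.1 and 0.5, no filter or a filter at 1 FPKM, 3 other scalings, no trend, sample weights, voom on recovered reads, the replicate block and leaving out each library. The exceptions were Col3a1, Col5a2, Col7a1 and Col8a2, and Col13a1 kept its call. Over 503 single-member values under the alternatives, 460 kept direction and side of the threshold, 17 lost the call, 16 gained one and 10 changed sign, none of these a called member.

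Counts over all genes, lower in Lenv-Treg, were 2417 after median-ratio scaling, 7970 in TPM and 2304 after quantile normalization against 4289, and 2780 to 3900 without 1 library. Counts higher were 2417 and 947 after median-ratio scaling and TPM, and 1152 to 1447 without 1 library. Members called lower numbered 18 to 21 without 1 library. Members called higher were 0 with the filter at 1 FPKM, which left out Col13a1, and 2 after median-ratio scaling or quantile normalization. Basement membrane members called lower were 8 in TPM, and other collagens 13 with no filter, which tested more genes.

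Whether same-numbered libraries pair is not given by the labels. Correlations of their deviations from the group means were 0.2, -0.01 and 0.33. Lenv-Treg replicates 1 and 3 correlated best with their own number and replicate 2 did not, which is too few values to settle it. With the replicate number as a block, 7 basement membrane members were called lower against 4 (Col4a3, adjusted p = 0.0166, Col4a4, 0.00902, and Col18a1, 0.0397, were added), 23 members in all against 20, and 1637 genes higher and 4270 lower. On recovered reads voom called 1537 genes higher and 4332 lower. The signs that changed were those of Col4a1 (0.03) and Col4a2 (0.08) after median-ratio scaling, Col8a1 in TPM (-0.10) and without 1 library (range -0.04 to 0.25), Col23a1 in TPM (-0.05), and Col28a1 after median-ratio scaling (0.03), quantile normalization (0.19) and without 1 library (range -0.17 to 0.07). The log2 ratio Col4a5/Col4a6 was -0.28 with 1 FPKM added to each chain, against 1.20, and Col4a3/Col4a4 was 0.15, with a range of -0.09 to 0.14 without 1 library. The cause was not tested. With 3 libraries a group, members under the filter rest on few reads.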
